A study of Mus musculus with 6 samples.

Results

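The matrix metalloproteases (MMPs), their tissue inhibitors (TIMPs) and the related ADAM and ADAMTS proteases were examined in lumbar dorsal root ganglia of mice. Members were the protein-coding genes of the deposited table whose symbol begins with Mmp, Timp, Adam or Adamts followed by a number. With 3 matching genes set aside and not reported here, this gave 75 genes of 36793. They were 21 Mmp, 4 Timp, 31 Adam and 19 Adamts genes. The study has 6 RNA sequencing libraries from ganglia at levels L3 and L4, from 3 mice labelled wild type and 3 labelled as NMDA receptor knockouts. According to the series title, the GluN1 subunit of the receptor, product of the gene Grin1, was deleted in Schwann cells. The labels give no strain, age, sex, treatment or promoter for either group, so nothing shared by both groups can be listed beyond tissue and level. The labels call the cell type Schwann cells, but the tissue is whole ganglion. Fixed neuron markers summed to 11214 to 15687 counts per 1000000 (CPM) per library and markers of myelinating Schwann cells to 4004 to 5418 CPM.

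MMPs are zinc proteases that cut collagens, laminins and other matrix proteins, and they are made as inactive precursors. ADAMs sit in the cell membrane and release the outer parts of other membrane proteins, although several have lost the protease site and act in adhesion. ADAMTS proteases are secreted and cut proteoglycans and procollagens, and the TIMPs block members of all of these families. In peripheral nerve these genes are known for remodelling of the matrix around Schwann cells, for shedding of neuregulins and for responses to injury.

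Knockout libraries 5 and 6 stood apart from the other libraries as a near-identical pair. A chi-square test over 10258 genes found 0 that differed between them, while the other 14 of 15 pairs differed at 3382 to 7317 genes. They were counted as 1 sample, so the test compares n = 3 wild-type samples with n = 2 knockout samples. Total expected counts ran from 28526704 to 36249163 per library. For Grin1, the targeted gene, the wild-type libraries held 68.4 to 114 CPM and the knockout libraries 81.5 to 116 CPM (log2 fold change 0.21, standard error 0.26). Neurons also express Grin1, and its level in whole ganglia checks neither label.

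By level per length, 2 inhibitors and 2 ADAMs without a protease site were the highest of the family. In deposited transcript abundance per length (TPM), Timp2 lay at 282 to 574 across the 6 libraries and alone made up 29.8% of the summed TPM of the 75 genes. Timp2, Adam23, Timp3 and Adam11 together made up 61.1%, and the 10 highest genes 85.1%. Timp2 did not overlap with the next gene in any library. Below it, the ranges of neighbours overlapped, from Adam23 (127 to 211 TPM) to Timp3 (124 to 183), Adam11 (101 to 143), Adam15 (75.5 to 119) and Adam9 (69.9 to 89.8). Adam10 (58.7 to 69.9 TPM) lay just under Adam9 without overlap, followed by Mmp15 (22.9 to 61.3), Adam19 (22.7 to 45.4) and Mmp25 (23.9 to 39.9). The most abundant Adamts gene was Adamts5, a cartilage aggrecanase, at 15.7 to 19.3 TPM.

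**Figure D1:**
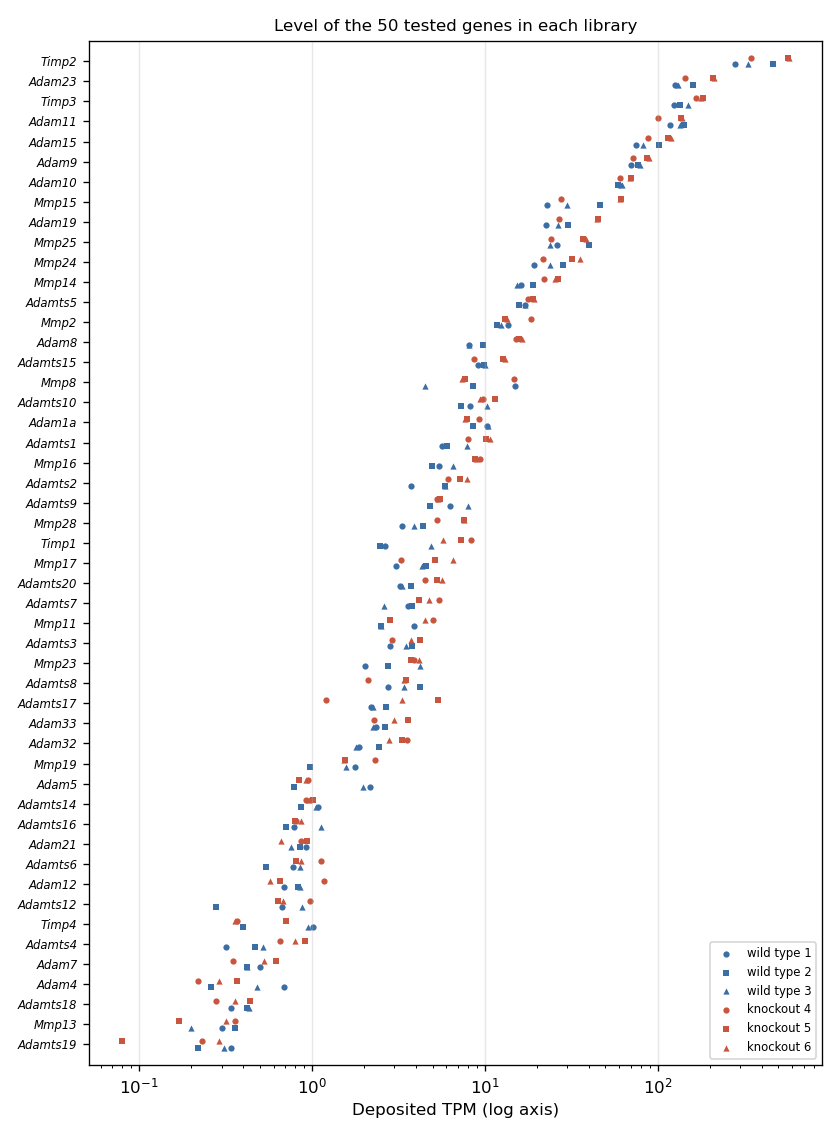
Deposited TPM (horizontal, log axis) of the 50 tested genes, 1 point per library, with wild type in blue, knockout in red and a shape for each mouse. Timp2 stands above all others at 282 to 574 TPM, and the lowest genes lie under 1 TPM.

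Summed over the genes reported here, TIMP transcripts outnumbered MMP transcripts in every library. The ratio of summed TIMP to summed MMP TPM was 3.07, 3.45 and 3.67 in wild-type libraries 1 to 3 and 3.31, 3.67 and 3.53 in knockout libraries 4 to 6. The groups overlapped in this ratio. Timp2 held 66.4 to 77.0% of the TIMP sum.

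Knockout ganglia were then set against wild-type ganglia, to see whether loss of the receptor subunit in Schwann cells goes with other levels of these genes. Of the 75 members, 50 passed the filter on low counts and were tested among 16809 genes. None passed in edgeR's quasi-likelihood test at a Benjamini-Hochberg adjusted p under 0.05, where 0.0952% of all tested genes did. Adam8 passed the looser threshold of 0.10, as did 0.178% of all tested genes. At an unadjusted p under 0.05, 10 of the 50 were higher in the knockout and 0 lower, a share of 20%, where 5.15% of all tested genes were higher, 3.99% lower and 9.14% either. For 14 of the 50, all knockout libraries lay above all wild-type libraries, where this held for 10.1% of all tested genes. In the other direction there was no member without overlap, where 14.1% of all tested genes lay apart, and 24.2% lay apart in either direction. Unlike the test, these counts take the near-identical knockout libraries 5 and 6 as separate, for members and all genes alike. The median log2 fold change was 0.25 over the 50 members and 0.00119 over all tested genes, and 38 of the 50 were positive, as were 50.2% of all tested genes. Without knockout libraries 5 and 6 the median was 0.06, with 29 of 51 positive. In that fit 6 members were higher at an unadjusted p under 0.05, where 2.83% of all genes were, and 5 of them were among the 10. In other fits up to 3 members were lower at an unadjusted p under 0.05, namely Adam5, Adamts9 and Timp4 without wild type 2. No label says how the animals were bred or collected, and the p-values measure only the variation among these 5 samples.

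**Figure D2:**
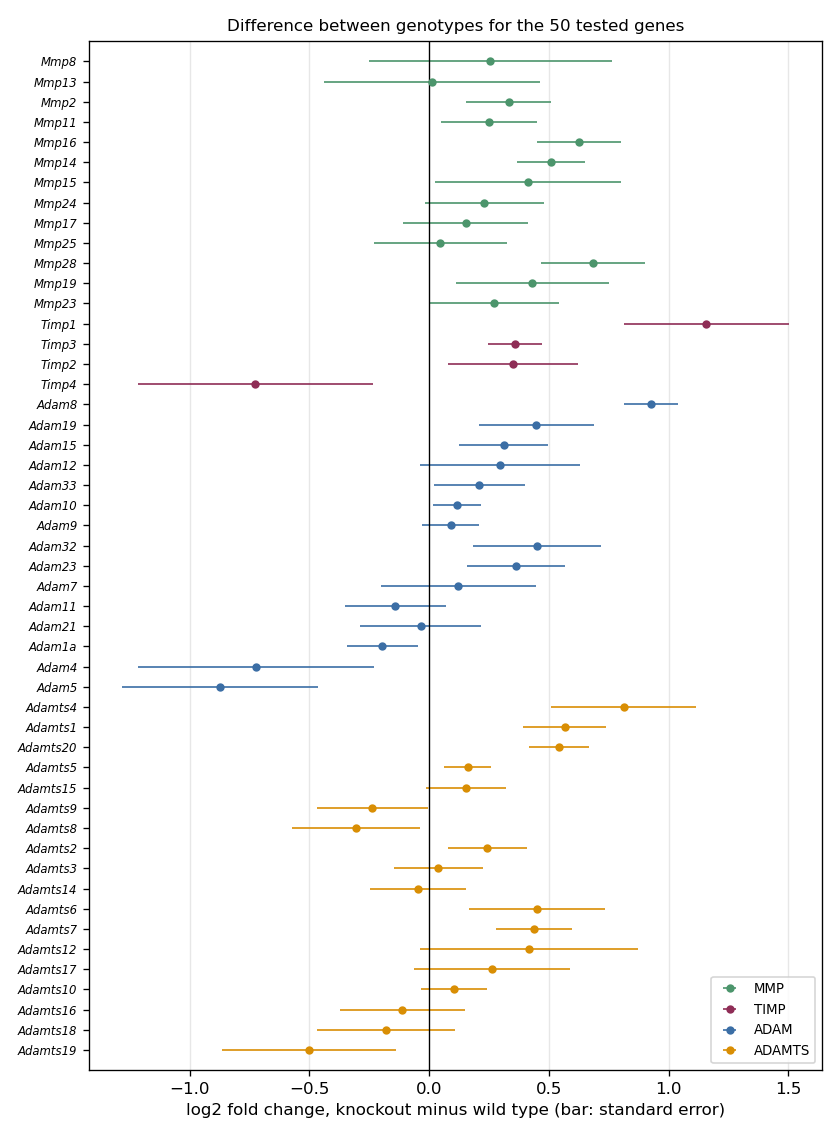
Log2 fold change, knockout minus wild type, of the 50 tested genes (points) with standard errors (bars), ordered by role from MMPs at the top to ADAMTS genes at the bottom. The 13 tested MMP genes lie at or right of 0, from 0.01 for Mmp13 to 0.68 for Mmp28.

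**Figure D3:**
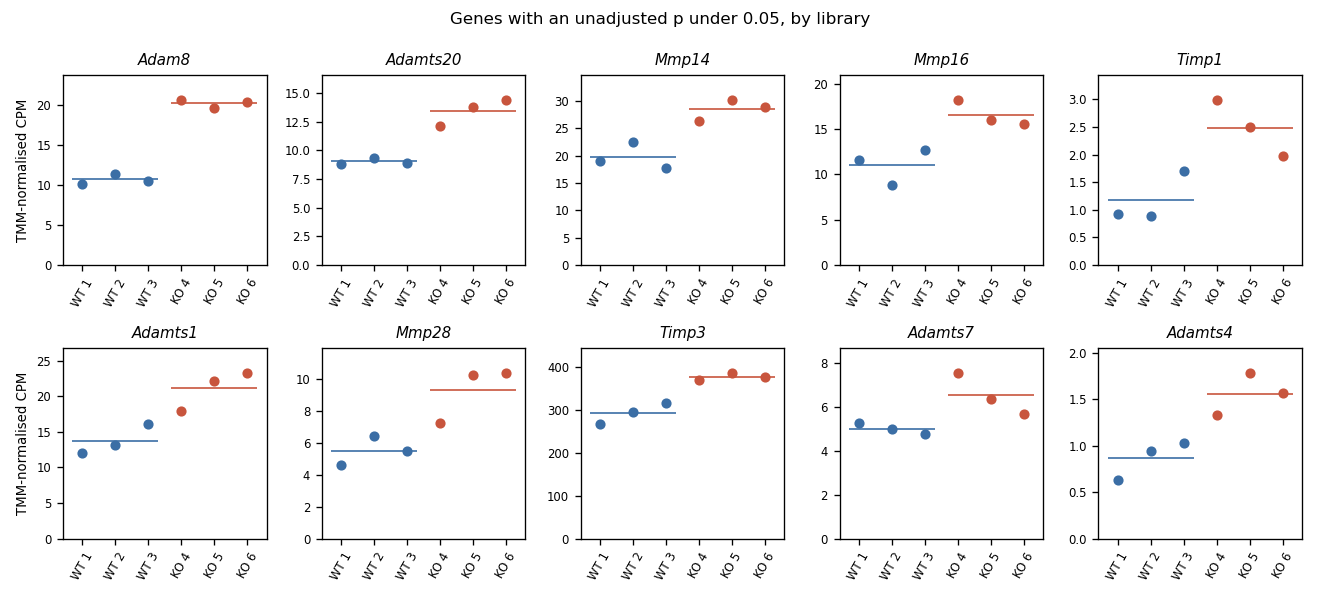
TMM-normalised CPM by library of the 10 genes with an unadjusted p under 0.05, with lines at group means over 3 libraries. In each panel the knockout points lie above the wild-type points, as for Adam8 at 10.2, 11.5 and 10.6 CPM against 20.7, 19.7 and 20.4 CPM.

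Adam8 had the smallest p of the family. This membrane protease with an intact active site is known from leukocytes. It was at 10.2, 11.5 and 10.6 CPM in wild-type libraries 1 to 3 and at 20.7, 19.7 and 20.4 CPM in knockout libraries 4 to 6. The libraries of each group lay close together, and the groups were far from overlapping. The difference was 1.9-fold, a log2 fold change of 0.93 with a standard error of 0.11 (edgeR adjusted p = 0.0763). It ranked 25 of 16809 genes by p. In leave-one-out fits its edgeR adjusted p reached 0.407. With the 6 libraries counted separately, which treats the near-identical pair as separate mice, the edgeR adjusted p was 0.00874, and 0.871% of all genes passed, 0.460% in the higher direction. Adam8 lies on chromosome 7 from 139978932 to 139992562 (GRCm38). It partly overlaps Gm16201, a transcript on the opposite strand with 68.5 to 125 counts per library and a log2 fold change of -0.59. The kit marks strand, but the setting used in counting is not given in the sources used here, so reads in the shared stretch cannot be told apart.

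Macrophages and neutrophils, which also make Adam8, were followed by their markers. The 7 macrophage markers summed to 54.8 to 67.3 CPM in wild type and 53.1 to 67.7 CPM in knockout, with 2 of 7 positive. The 8 neutrophil markers summed to 137 to 502 CPM in wild type and 200.1 to 548 CPM in knockout. None of these markers was at 0, and both lists overlapped between groups. In whole ganglia, fewer cells of a type and less RNA per cell cannot be told apart.

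The 300 bases around the RefSeq start of Adam8, 250 before and 50 after it, are shown because this gene leads the comparison (chr7:139992513-139992812, minus strand, GRCm38.p6). The window is 52.3% G and C and holds no AP-1 motif in either orientation, as TGAGTCA or TGACTCA, which is 1 sequence read on both strands.
Adam8: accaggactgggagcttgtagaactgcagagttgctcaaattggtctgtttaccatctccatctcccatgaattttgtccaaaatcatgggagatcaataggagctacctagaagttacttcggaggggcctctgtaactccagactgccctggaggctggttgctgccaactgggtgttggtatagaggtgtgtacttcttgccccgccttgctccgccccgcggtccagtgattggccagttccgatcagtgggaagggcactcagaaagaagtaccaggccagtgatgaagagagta

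The membrane-type MMPs, which act at the cell surface, included the most abundant MMPs, Mmp15 and Mmp25. All 6 were tested, 6 had a positive log2 fold change, and Mmp14 and Mmp16 had an unadjusted p under 0.05. Over all tested genes 50.2% were positive and 5.15% were higher at that p. Mmp14 activates the precursor of Mmp2. It was at 19, 22.4 and 17.7 CPM in wild-type libraries 1 to 3 and 26.3, 30.3 and 29 CPM in knockout libraries 4 to 6, 1.42-fold apart (log2 fold change 0.51, standard error 0.14, edgeR adjusted p = 0.374). Mmp16 was at 11.6, 8.81 and 12.7 CPM in wild type, against 18.2, 16 and 15.6 CPM in knockout, 1.54-fold apart (standard error 0.18 on the log2 scale, edgeR adjusted p = 0.379). Both genes were higher in all 3 knockout libraries. Without knockout library 4 the unadjusted edgeR p of Mmp16 was 0.0601, and without libraries 5 and 6 that of Mmp14 was 0.0659.

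The other membrane-type genes overlapped between groups. Mmp15 was at 45.2, 93.3 and 58.9 CPM in wild type, against 56.4, 119 and 117 CPM in knockout (log2 fold change 0.41, standard error 0.39). Its highest wild-type library, number 2, lay above knockout library 4. Mmp25, a lipid-anchored protease known from neutrophils, was at 40, 61.9 and 36.1 CPM in wild type, against 38, 55.8 and 57.8 CPM in knockout (0.05 on the log2 scale). Mmp24, a protease of neurons that cuts N-cadherin, was at 31.5, 51.8 and 40.5 CPM in wild type, against 39.3, 56.1 and 58.5 CPM in knockout. Mmp17 had a log2 fold change of 0.15.

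Among the MMPs outside the membrane-type group, Mmp28 was the 1 gene with an unadjusted edgeR p under 0.05. Mmp28, or epilysin, was at 4.61, 6.45 and 5.5 CPM in wild-type libraries 1 to 3 and 7.25, 10.3 and 10.4 CPM in knockout libraries 4 to 6, 1.61-fold apart (standard error 0.22 on the log2 scale, edgeR adjusted p = 0.441). Without knockout libraries 5 and 6 its log2 fold change fell from 0.68 to 0.39, with an unadjusted edgeR p of 0.16. Knockout library 4 lay nearer to the wild-type libraries than libraries 5 and 6 did. Mmp2, the gelatinase that Mmp14 activates, was at 18.8, 16.5 and 16.9 CPM in wild type, against 26.1, 17.6 and 18.1 CPM in knockout (0.33 on the log2 scale). Only knockout library 4 lay above the wild-type range for Mmp2, and with it as the lone knockout sample the log2 fold change was 0.58. Mmp2 then was the 1 member with an unadjusted p under 0.05 that was not among the 10. That library also held the highest sum of 6 skeletal muscle markers, 39.1 CPM against 2.61 to 10.7 CPM in the other libraries, and a haemoglobin share of 1.52% where the others had 0.304 to 0.598%. Their part in the Mmp2 value was not tested. Mmp11, or stromelysin 3, was at 2.21, 2.52 and 2.46 CPM in wild type, against 3.16, 2.41 and 2.72 CPM in knockout, with overlapping groups. Mmp19 and Mmp23 had log2 fold changes of 0.43 and 0.27. Of the Mmp genes reported here 13 of 13 tested were positive, where 50.2% of all tested genes were. The count was 12 of 13 with upper quartile scaling or with 6 libraries counted separately, and 9 of 13 without knockout libraries 5 and 6.

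Several MMPs known as inducible were nearly silent. They lie in a cluster of 9 members on chromosome 9 from 7272514 to 7699585 (GRCm38), of which 2, Mmp8 and Mmp13, were tested. Mmp1b, Mmp7 and Mmp10 had 0 counts in all 6 libraries, which allows up to 0.0157 CPM over their 191079052 counts, for counting error only. Mmp3 had at most 3 counts in a library, Mmp12 at most 6, Mmp20 at most 2 and Mmp27 at most 1. Mmp13, a collagenase also made by cartilage and bone, had between 7 and 14 counts in the wild-type and between 7 and 13 in the knockout libraries. These 8 genes had at most 14 counts in any library, and Mmp8 was the exception.

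Most promoters of this cluster share a feature that the selection did not use. Of its 9 genes, 6 hold the AP-1 motif TGAGTCA or its reverse strand TGACTCA within the 300-base RefSeq window, all 35 to 93 bases before the start. Mmp8, Mmp20 and Mmp27 lack it. The motif is found in 5.2% of the 32851 windows of all genes, and the difference was not tested. The stretches of 41 bases around each match are shown because 6 genes of the cluster hold it. The motif is in capitals and each stretch is read in the direction of its gene (GRCm38.p6).
Mmp13 (chr9:7272462-7272502, plus strand): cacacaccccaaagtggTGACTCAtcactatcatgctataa
Mmp12 (chr9:7347313-7347353, plus strand): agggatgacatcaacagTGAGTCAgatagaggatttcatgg
Mmp1b (chr9:7388096-7388136, minus strand): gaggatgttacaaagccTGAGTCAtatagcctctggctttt
Mmp3 (chr9:7445759-7445799, plus strand): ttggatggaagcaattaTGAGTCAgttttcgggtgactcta
Mmp10 (chr9:7502262-7502302, plus strand): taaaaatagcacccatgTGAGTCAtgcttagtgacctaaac
Mmp7 (chr9:7692010-7692050, plus strand): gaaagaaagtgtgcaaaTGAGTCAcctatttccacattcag

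None of the 7 genes with an unadjusted p under 0.05 that had a window in the table held this motif. Of the members outside the cluster with a window, Adam19, Adam1b and Adam29 held it. Motif and level did not go together throughout, since Mmp20 and Mmp27 of the cluster lack the motif at 2 counts or fewer and Adam19 holds it at 22.7 to 45.4 TPM. A match is a description of these letters and not evidence of binding.

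Mmp8, the neutrophil collagenase, was the 1 well-expressed gene of the cluster, and its libraries spread widely within each genotype. It was at 16.4, 9.57 and 4.92 CPM in wild-type libraries 1 to 3 and 16.8, 8.26 and 7.92 CPM in knockout libraries 4 to 6 (log2 fold change 0.25, standard error 0.51). The 8 neutrophil markers summed to 502, 367 and 137 CPM in wild type, and to 548, 204 and 200.1 CPM in knockout. Mmp8 and these markers were both highest in knockout 4 and wild type 1 and lowest in wild type 3. Their part in the Mmp8 values was not tested. Mmp25, which neutrophils also make, did not follow them, since it was highest in wild type 2 and lowest in wild type 3 and knockout 4.

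**Figure D4:**
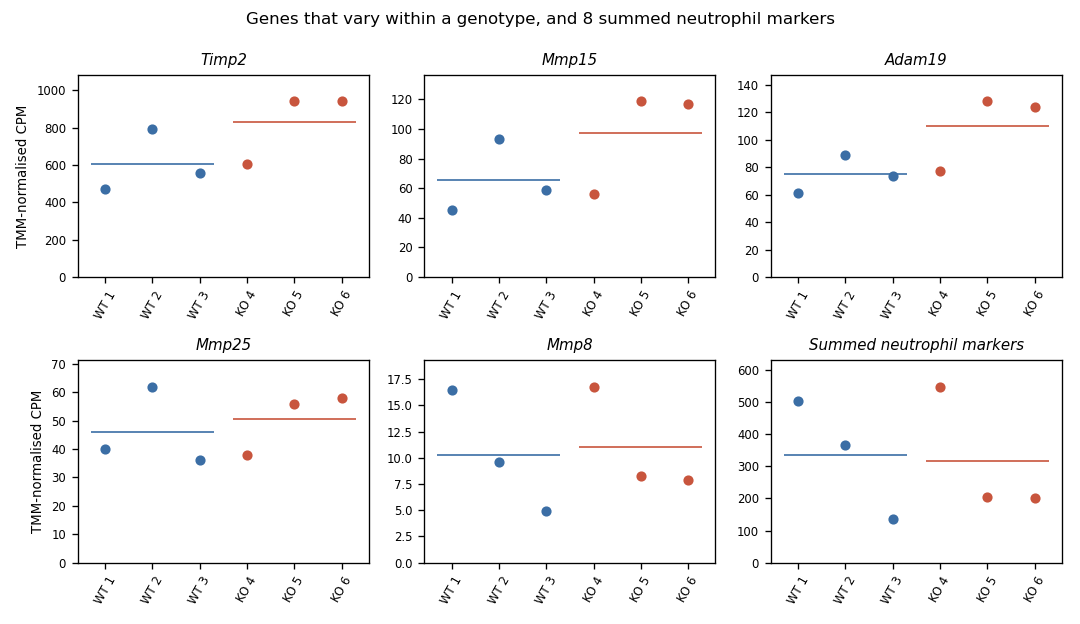
TMM-normalised CPM by library of 5 genes that varied within a genotype and of 8 summed neutrophil markers, with lines at group means over 3 libraries. Timp2, Mmp15, Adam19 and Mmp25 are higher in wild type 2 than in knockout 4, while Mmp8 has the same highest and lowest libraries as the neutrophil markers.

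The 4 inhibitors differed among themselves. Timp1, the inducible secreted inhibitor, was at 0.927, 0.881 and 1.71 CPM in wild-type libraries 1 to 3 and 2.99, 2.5 and 1.97 CPM in knockout libraries 4 to 6, 2.23-fold apart (log2 fold change 1.16, standard error 0.34, edgeR adjusted p = 0.402). It came from 28 to 50 expected counts in the wild-type libraries and 63 to 88 in the knockout libraries. Without knockout library 4 its unadjusted edgeR p was 0.0656. Timp3, which binds to the matrix and also inhibits ADAM and ADAMTS proteases, was at 267, 296 and 317 CPM in wild type, against 369.9, 386 and 376 CPM in knockout, 1.28-fold apart (standard error 0.11 on the log2 scale, edgeR adjusted p = 0.444). Both were higher in every knockout library than in any wild-type library. The unadjusted edgeR p of Timp3 was 0.0559 without wild type 1, 0.0536 without knockout 4 and 0.0754 without knockout 5 and 6.

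Timp2, the partner of Mmp14 in Mmp2 activation, overlapped between groups. It was at 472, 792 and 558 CPM in wild type, against 603, 942 and 941 CPM in knockout (log2 fold change 0.35, standard error 0.27), and wild type 2 lay above knockout 4. Without knockout libraries 5 and 6 its log2 fold change was -0.01. Timp4 was the rarest inhibitor, with 8 to 21 counts in the wild-type and 7 to 15 in the knockout libraries (log2 fold change -0.73, standard error 0.49).

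Except for Timp2, the inhibitors lie inside synapsin genes, which encode proteins of synaptic vesicles in neurons. Timp1 lies within Syn1 on chromosome X (20870166 to 20874735), Timp3 within Syn3 on chromosome 10 (86300372 to 86349506) and Timp4 within Syn2 on chromosome 6 (115241892 to 115252205), each on the opposite strand. Syn1 counts ran from 5512 to 11178 over the wild-type libraries and from 5124 to 13693 over the knockout libraries. These counts are not scaled to depth. Knockout 4 had the fewest Syn1 counts, 5124 of 28536700 in total, and wild type 1 had 5512 of 31827792. Timp1 had 88 counts in knockout 4 and 87 in knockout 5. The log2 fold changes of Syn1, Syn2 and Syn3 were 0.27, 0.03 and 0.02, with standard errors of 0.43, 0.30 and 0.16. Without the strand setting, reads from host and guest cannot be told apart where both are transcribed.

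Of the somatic ADAMs with a protease site 7 were tested, 7 were positive, and Adam8 alone had an unadjusted p under 0.05. Over all tested genes 50.2% were positive and 5.15% were higher at that p. Adam10, the main sheddase of Notch receptors and of amyloid precursor protein, was at 122, 123 and 128 CPM in wild type, against 129.5, 139 and 139 CPM in knockout, without overlap but only 1.08-fold apart (standard error 0.10 on the log2 scale). Adam9 was at 122, 138 and 137 CPM in wild type, against 129, 149.6 and 154 CPM in knockout, and its log2 fold change turned from 0.09 to -0.03 without knockout libraries 5 and 6. Adam15 was at 70.2, 104 and 79.4 CPM in wild type, against 95.6, 114 and 113 CPM in knockout (0.31 on the log2 scale, standard error 0.19). Adam19, known for processing neuregulin, was at 61.5, 88.8 and 74 CPM in wild type, against 77.2, 128 and 124 CPM in knockout (0.45, standard error 0.24), with wild type 2 above knockout 4. Its log2 fold change was 0.046 without knockout libraries 5 and 6 and 0.76 without knockout library 4. Adam33 and Adam12 had log2 fold changes of 0.21 and 0.30.

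Of the ADAMs without a protease site, Adam23 and Adam11 bind LGI proteins at synapses and along axons. Adam23 was at 319, 432 and 339 CPM in wild-type libraries 1 to 3 and 378, 552 and 554 CPM in knockout libraries 4 to 6 (log2 fold change 0.36, standard error 0.20), and at 0.057 on the log2 scale without knockout libraries 5 and 6. Adam11 lay between 195.8 and 276.2 CPM in wild type and between 170.6 and 248.5 CPM in knockout (log2 fold change -0.14, standard error 0.21). Both overlapped between groups, and the sign of Adam11 turned without wild type 2 and without knockout 4. Adam32 was at 0.688, 0.818 and 0.82 CPM in wild type, against 1.12, 1.06 and 0.939 CPM in knockout, without overlap.

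ADAMs known from testis and sperm were mostly at or near 0. Of 16 genes placed in this group 4 were tested, and all 4 were negative, where 50.2% of all tested genes were positive. Adam5 was at 2.21, 0.944 and 1.95 CPM in wild type, against 1.05, 0.689 and 0.97 CPM in knockout (log2 fold change -0.87, standard error 0.41, edgeR adjusted p = 0.574), and wild type 2 lay within the knockout range. The others were Adam1a, Adam4 and Adam21, at -0.20, -0.72 and -0.04 on the log2 scale. ADAMs without a protease site were placed in another group, whatever their tissue. In that group 3 of 4 tested genes were positive, with Adam32 at 0.45 and Adam7 at 0.12 on the log2 scale. Adam4 lies inside Cox16 on the same strand, and the counts of Adam1a and Adam4 were not whole numbers, as happens where reads are divided among transcripts. On chromosome 8, Adam20, Adam24 and Adam39 had 0 counts in every library and their neighbour Adam25 had 4 counts in wild type 1 alone. In a separate group on that chromosome, Adam26a, Adam26b and Adam34 had 0 counts in every library.

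Among the ADAMTS proteases, 4 of 18 tested genes were higher at an unadjusted p under 0.05, where 5.15% of all genes were. They were Adamts1, Adamts4 and Adamts20, which cut proteoglycans, and Adamts7, and whether the groups of ADAMTS genes differ was not tested. Of 7 genes that cut proteoglycans 5 were positive and 2, Adamts8 and Adamts9, negative, where 50.2% of all tested genes were positive. Adamts20, known for its role in the survival of pigment cell precursors, was at 8.82, 9.35 and 8.92 CPM in wild-type libraries 1 to 3 and 12.1, 13.8 and 14.4 CPM in knockout libraries 4 to 6, 1.46-fold apart (log2 fold change 0.54, standard error 0.13, edgeR adjusted p = 0.295). The wild-type libraries lay within a narrow range below all knockout libraries. Adamts1, which cuts versican and aggrecan, was at 12, 13.2 and 16.1 CPM in wild type, against 17.9, 22.2 and 23.2 CPM in knockout, 1.48-fold apart (standard error 0.17 on the log2 scale, edgeR adjusted p = 0.42). Adamts4, also an aggrecanase, was at 0.628, 0.944 and 1.02 CPM in wild type, from 21 to 30 counts, and 1.33, 1.78 and 1.56 CPM in knockout, from 39 to 62 counts (0.81 on the log2 scale, standard error 0.30, edgeR adjusted p = 0.51). Without knockout libraries 5 and 6 the unadjusted edgeR p was 0.114 for Adamts1 and 0.208 for Adamts4, and for Adamts4 it was 0.0847 without wild type 1 and 0.0501 without knockout 5.

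The neighbours Adamts1 and Adamts5 lie side by side on chromosome 16 (85793827 to 85901828), but their differences were unequal in size. Adamts5 was at 63.2, 59.2 and 62.9 CPM in wild type, against 68.2, 69.2 and 70.1 CPM in knockout, without overlap and 1.12-fold apart. The neighbours Adamts15 and Adamts8 on chromosome 9 had log2 fold changes of 0.15 and -0.30. Whether the values differ within these pairs was not tested.

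The other ADAMTS genes were mostly low. Adamts7, which cuts cartilage oligomeric matrix protein, was at 5.26, 5 and 4.78 CPM in wild type, against 7.55, 6.4 and 5.69 CPM in knockout, 1.35-fold apart (standard error 0.16 on the log2 scale, edgeR adjusted p = 0.501). It partly overlaps Tbc1d2b on the opposite strand, and after correction for GC content its unadjusted edgeR p was 0.15. That p was 0.0600 without wild type 2, 0.0857 without wild type 3, 0.058 without knockout 5 and 0.21 without knockout 4, where the log2 fold change was 0.28. The procollagen N-proteinase Adamts2, which trims fibrillar collagens, was at 9.6, 11.3 and 13 CPM in wild type, against 12.1, 14.6 and 14.2 CPM in knockout (0.24 on the log2 scale), with overlapping groups. Adamts3 and Adamts14, of the same group, had log2 fold changes of 0.04 and -0.05. The remaining 7 tested genes lay between -0.50 for Adamts19 and 0.45 for Adamts6.

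GC content moved with the libraries. Over all tested genes with transcript GC content of 55.1% or more, the upper quartile, the median log2 deviation from the gene's own mean was -0.20, 0.12 and -0.11 in wild-type libraries 1 to 3 and -0.06, 0.13 and 0.14 in knockout libraries 4 to 6. That range held 15 of the 50 members, among them Mmp15 at 59.6% and Adam19 at 55.8%. With a correction for GC content, Mmp15 was at 0.29, Adam19 at 0.36, Timp2 at 0.29 and Adam8 at 0.85 on the log2 scale. After it the median over members was 0.20, and 9 of the 10 genes kept an unadjusted p under 0.05. Adam11 then had an unadjusted p of 0.029 in the lower direction, with a log2 fold change of -0.28.

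Genes that activate, restrain or resemble these proteases, proteoglycans that they cut and LGI ligands of ADAMs were read from a further list. Like the members, it was chosen with earlier results of these data known, so its shares are a description only. Of 50 such genes 45 were tested, 35 were positive, 15 (33.3%) were higher at an unadjusted p under 0.05 and 0 lower. Their median was 0.28 on the log2 scale. Over all tested genes 5.15% were higher, 3.99% lower and 50.2% positive. In edgeR with adjustment over all genes, 1 passed. This was Ecel1, an endopeptidase-like protein of neurons, at 1.2, 1.48 and 0.683 CPM in wild type, against 18.7, 14.9 and 14.8 CPM in knockout (log2 fold change 3.89, standard error 0.28, adjusted p = 0.0188).

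Among the other zinc metalloproteases, Pappa, which cuts insulin-like growth factor binding proteins, held 8.46 to 15.03 CPM in the wild-type libraries and 26.6 to 31.4 CPM in the knockout libraries (log2 fold change 1.35, standard error 0.24, edgeR adjusted p = 0.221). Bmp1, the procollagen C-proteinase, was at 17.6, 15.7 and 18.4 CPM in wild type, against 26.5, 29.0 and 26.9 CPM in knockout (log2 fold change 0.66). Both were higher in all knockout libraries. The related tolloid genes Tll2 and Tll1 had log2 fold changes of 1.09 and 0.40.

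Of 17 tested regulators 11 were positive and 6 negative, and 4 were higher at an unadjusted p under 0.05, where 5.15% of all genes were. The 4 were Papln, or papilin, a matrix protein related to ADAMTS proteases (log2 fold change 0.70), Pcsk5, a convertase that activates precursors (0.54), Rhbdf1, or iRhom1, which guides a sheddase to the cell surface (0.52), and Lrp1, an endocytic receptor that clears proteases (0.53). Reck, a membrane-anchored inhibitor of MMPs, was at 0.18 and Furin at 0.25. Tspan14, a tetraspanin that escorts Adam10, lay lower in every knockout library, at 62.3, 62.1 and 64.1 CPM in wild type, against 54.0, 53.4 and 53.7 CPM in knockout (log2 fold change -0.22). The 6 ADAMTS-like genes, which lack a protease domain, were all positive with a median of 0.49, where 50.2% of all tested genes were positive. Thsd4, Adamtsl4, Adamtsl2 and Adamtsl5 had an unadjusted p under 0.05, at 0.70, 0.57, 0.53 and 0.45, where 5.15% of all tested genes were higher. Of the proteoglycans that ADAMTS proteases cut, Bcan, Ncan, Acan and Vcan were at 0.50, 0.52, 0.83 and 0.30, and Bcan had an unadjusted p under 0.05. Of the LGI ligands of ADAMs, Lgi4, made by Schwann cells, was at 59.5, 64.9 and 76.6 CPM in wild type, against 112, 112 and 118 CPM in knockout (edgeR adjusted p = 0.221), while Lgi1 was at -0.16.

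Summed markers of several cell types lay apart between genotypes. The 8 markers of myelinating Schwann cells summed to 4004 to 4757 CPM in wild type and 5377 to 5418 CPM in knockout, with 7 of 8 positive. Those of endothelium summed to 72.3 to 84.9 CPM and 99.9 to 106 CPM, with 7 of 7 positive. Bone and cartilage markers summed to 15.9 to 18.6 CPM and 22.1 to 23.4 CPM. Satellite glia markers summed to 3432 to 3659 CPM and 3781 to 4172 CPM, with 6 of 7 positive. Mural cell markers summed to 265 to 328 CPM in wild type and 212 to 217 CPM in knockout, but 5 of 7 were positive. Rgs5 made up most of that sum, at 191 to 256 CPM in wild type and 119.8 to 135 CPM in knockout, while Cspg4 and Notch3 had log2 fold changes of 0.71 and 0.58. Osteoclast markers summed lower in knockout without overlap, at 10.5 to 13.9 CPM against 7.51 to 10.04 CPM. Ctsk made up most of that sum, at 8.37 to 10.8 CPM in wild type and 5.51 to 7.76 CPM in knockout. Of 6 markers 3 were tested, and the other tested ones, Acp5 and Oscar, overlapped between groups, at log2 fold changes of -0.10 and -0.11. Of 5 mast cell markers 4 were negative, 3 lay lower in every knockout library and 2 had an unadjusted p under 0.05. Over all tested genes 50.2% were positive, 14.1% lay lower without overlap and 3.99% were lower at that p. Fibroblast markers overlapped in their sum, at 1483 to 1909 CPM and 1396 to 1803 CPM, with 3 of 8 positive and 5 negative. Apod and Dcn made up most of that sum, at log2 fold changes of -0.12 and -0.47. Col1a1, Col1a2 and Pi16 lay higher in every knockout library, at 0.61, 0.43 and 0.10, as did 10.1% of all tested genes. The part of these cell types in the members' values was not tested.

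The 25 members that were not tested had at most 15.7 expected counts in a library. Of these, 11 had 0 counts in all libraries and 14 had some. The highest were Adam1b, Adamts13, which cuts von Willebrand factor, with at most 9 counts, and Adam28 with at most 7.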

How the data were processed

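Total RNA from mouse ganglia was sequenced in 6 libraries. The submitters' processing notes name Trimmomatic 0.38, STAR 2.6.0a and RSEM 1.3.0. The authors deposited RSEM expected counts and TPM per gene, with a gene length in bases beside them, per the file headers. The library kit marks strand, per the labels' protocols, but the strand setting of the counting is not given in the sources used here.

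Expected counts were rounded and tested in edgeR 4.0.16 (quasi-likelihood, TMM scaling, filterByExpr, genotype as the only term, Benjamini-Hochberg adjustment over all 16809 genes). Near-identical knockout libraries 5 and 6 were summed. CPM are TMM-normalised, and TPM were used to compare genes. Standard errors were derived from the test statistic. Fits were tested on simulated data. Symbols and positions came from GENCODE M21 (GRCm38), and promoters from RefSeq.

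Genes named with values had an unadjusted p under 0.05, were among the 10 highest in TPM, were TIMPs or had the smallest p of their role. Others named were chosen after their values were seen. Members and lists were chosen with earlier results of these data known. A further 3 genes matching the names are not reported here. Alternatives used DESeq2 1.42.0, limma 3.58.1, other scalings and filters, a GC correction and left-out samples.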

Additional observations from a re-analysis of the deposited data

How the results depend on the processing

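The count of all genes past the edgeR threshold was 16. It was 144 with 6 libraries counted separately, 255 with DESeq2, 81 without a filter on low counts and 25 with GC correction. Leaving out samples gave 7 to 16, with 7 without knockout 4, 8 without wild type 2 and 10 without wild type 3. With 6 libraries and GC correction, chosen after seeing the data, it was 414. Among members the count was 0, and 1 (Adam8) with 6 libraries, with DESeq2 and without a filter. With 6 libraries and GC correction 2.52% of all genes passed, and 10.7% were higher at an unadjusted p under 0.05. Of the members 5 passed, and 16 had an unadjusted p under 0.05, 14 higher and 2 lower. That count, 10 in the edgeR test, ran from 6 to 15 when samples were left out, with 6 without knockout 5 and 6. The 15, without wild type 2, were 12 higher and 3 lower (Adam5, Adamts9 and Timp4), where 8.19% of all genes were higher. The median log2 fold change ran from 0.0599 (without knockout 5 and 6) to 0.26. Leaving out samples turned the sign of Adam11 (-0.23 to 0.10 without single samples, -0.43 without knockout 5 and 6), Mmp25 (-0.10 to 0.32 without single samples, -0.28 without knockout 5 and 6) and Mmp8 (-0.34 to 0.79). Without knockout 5 and 6, Timp2 was at -0.0100, Adam23 at 0.057, Adam19 at 0.046, Adam9 at -0.0333 and Mmp15 at -0.22. The cause was not tested. For single genes, 480 values kept direction and side of the threshold, 8 newly passed and 10 reversed. Leaving out knockout 4, or 5 and 6, leaves 1 knockout sample, assumed to vary like the wild type. No paired analysis was possible because numbers 1 to 3 and 4 to 6 name different animals, with none in both genotypes. Of the 25 members under the filter, 14 entered the fit without a filter, where Adam1b and Adam5 were lower at an unadjusted p under 0.05.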

Other observations

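The deposited gene lengths, which RSEM averages over transcripts by their abundance, differed between libraries for 31 members. For 2 of these, 6.45%, the genotypes did not overlap, where 10% of all genes with such a spread had no overlap. Adamts1 had lengths of 4625, 4676 and 4499 bases in wild-type libraries 1 to 3 and 4753, 4884 and 4884 bases in knockout libraries 4 to 6. Its mean length was 240.4 bases longer in the knockout. Adamts16 was 82.0 bases shorter in the knockout. No test was run on these lengths.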
